A study of Homo sapiens with 4 samples.

Results

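The DNA replication machinery is described here through the mRNAs of 53 genes, all of which had a row in a count table of 26364 gene symbols. The list was chosen by symbol: the origin recognition complex, the licensing factors with their inhibitor geminin, the MCM helicase and its partners, the polymerases with the sliding clamp and its loader, RPA, and genes of fragment joining, nucleotide supply, fork protection and replication-linked chromatin. Polysomes, mRNAs carrying several ribosomes, were taken from cytoplasmic extracts of HCT116, a human colorectal carcinoma line, by sucrose gradient. The 4 libraries were the labelled Dicer1 knockout in heavy polysomes (mRNAs with at least 10 ribosomes), the labelled knockout in light polysomes (at most 9), and wild type HCT116 cells in the same heavy and light fractions. There was 1 library per group. The heavy and light libraries of a genotype were treated as 1 gradient, so a heavy against light difference was seen in 2 gradients and a difference between genotypes had no replicate. The labels name no treatment and do not say which part of DICER1 was altered or how many clones were used.

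Replication starts where the origin recognition complex, with CDC6 and CDT1, loads the MCM2 to MCM7 ring onto DNA in G1 phase. In S phase CDC45 and GINS turn that ring into the active helicase, primase and the polymerases copy the strands, RPA coats single-stranded DNA, and the PCNA clamp, loaded by RFC, holds the polymerases in place. Geminin binds CDT1 and prevents a second round of loading. Many of these genes are transcribed at the G1/S transition by E2F factors, and DICER1 cuts the precursors of microRNAs, which repress mRNAs through sites that pair with their seed.

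Library totals ran from 17457116 to 20933675 counts, and the 53 genes took 0.735% of the counts in heavy and 0.475% in light polysomes of the labelled knockout, and 0.799% in heavy and 0.452% in light polysomes of the wild type. The lowest count of any of the 53 in any library was 227, so all of them passed the filter on low counts. DICER1 itself had 925 counts in heavy and 889 in light polysomes of the labelled knockout, against 500 in heavy and 547 in light polysomes of the wild type. DICER1 mRNA was therefore not lower in the libraries labelled knockout, and the word labelled is kept. Counts summed over all exons cannot show whether the enzyme is still made. Of 7 epithelial markers, 6 had at least 50 counts in each library. Among 17 markers of fibroblasts, endothelium and blood, COL1A1 alone did (911 and 304 counts in heavy and light polysomes of the labelled knockout, 468 and 206 in those of the wild type). The row of the ribosomal RNA precursor RNA45S5 took 4.32% and 5.97% of the counts in heavy and light polysomes of the labelled knockout, against 2.61% and 3.59% in the wild type. Whether it bears on any result below was not tested.

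Promoter words and microRNA seeds bear on these genes, and both were read from RefSeq (GRCh38.p14) and GENCODE release 44 (GRCh38), while the counts were made on hg19. The first is shown because it is shared by members from several steps of replication. Windows from 250 bases before to 50 bases after the annotated start were found for 47 of the 53 genes and were searched on both strands for the E2F words TTTCCCGC, TTTCGCGC, TTTGCCGC and TTTGGCGC, which can overlap each other. At least 1 word was present in 23 of the 47 (48.9%), against 908 of 27305 promoters of all genes (3.33%) and 671 of 16183 promoters of genes with a row in the count table (4.15%). These are matches of letters, not shown binding sites. Windows of 60 bases from 6 genes follow, 5′ to 3′ on the strand of the gene, with the matched words in capitals. MCM2, MCM3, MCM6 and MCM7 encode helicase subunits, CDC6 the loader, and PCNA the clamp. In MCM2 and MCM6 words of both strands overlap.
MCM2, chr3:127598387-127598446, plus strand: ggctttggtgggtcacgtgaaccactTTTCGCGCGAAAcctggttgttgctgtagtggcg
MCM3, chr6:52284713-52284772, minus strand: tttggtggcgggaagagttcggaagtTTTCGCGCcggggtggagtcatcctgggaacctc
MCM6, chr2:135876496-135876555, minus strand: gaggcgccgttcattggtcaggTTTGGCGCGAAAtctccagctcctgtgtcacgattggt
MCM7, chr7:100101373-100101432, minus strand: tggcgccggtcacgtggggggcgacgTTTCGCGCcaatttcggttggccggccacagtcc
CDC6, chr17:40287860-40287919, plus strand: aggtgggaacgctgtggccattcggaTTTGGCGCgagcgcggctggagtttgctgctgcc
PCNA, chr20:5126648-5126707, minus strand: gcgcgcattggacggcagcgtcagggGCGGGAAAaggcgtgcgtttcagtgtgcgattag

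The second kind is microRNA sequence, shown because the study altered DICER1 and because MCM7 hosts microRNAs. MCM7 occupies bases 100092233 to 100101940 of the minus strand of chromosome 7, and the last but one of its 14 introns, intron 13, holds miR-25, miR-93 and miR-106b. The mature microRNAs of these hairpins that are known to accumulate most are given 5′ to 3′ with the seed, bases 2 to 8, in capitals.
hsa-miR-106b-5p: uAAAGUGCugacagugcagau
hsa-miR-93-5p: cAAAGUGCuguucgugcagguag
hsa-miR-25-3p: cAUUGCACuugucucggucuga
The seeds of miR-106b and miR-93 are identical and also belong to the miR-17 family, and that of miR-25 differs. Let-7, a family known to repress proliferation genes, is represented by let-7a.
hsa-let-7a-5p: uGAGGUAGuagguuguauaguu
RRM2, the small subunit of ribonucleotide reductase, was the only one of the 53 whose 3′ UTR held a 7-letter match to both seeds (GRCh38, plus strand, matches in capitals).
RRM2 let-7 match, chr2:10129510-10129533: aaaactgtgtagCTACCTCacaac
RRM2 miR-17 family match, chr2:10129751-10129774: aatataaacctgGCACTTTacaaa

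The first comparison asked which replication mRNAs were enriched in heavy over light polysomes. Most were, relative to the other mRNAs of the libraries. The RNA yield of each fraction was not used, so a ratio does not give the part of an mRNA's molecules in heavy polysomes. A call toward heavy polysomes was made for 34 of the 53 genes and a call toward light for 4, while 15 had none (edgeR's quasi-likelihood fit, blocked by gradient, Benjamini-Hochberg adjusted p under 0.05 over 13574 genes). Of all tested genes 59.3% had a call, 30.0% heavy and 29.3% light. The median log2 ratio of heavy over light polysomes was 1.19 for the 53 genes and -0.07 for all genes tested. By gradient, the median over the 53 was 0.97 in the labelled knockout and 1.42 in the wild type. The ratio lay above 0 in both gradients for 43 of the 53, beside 46.6% of all genes with 50 or more counts per library. It lay below 0 in both for 8, and the share of all genes below 0 was not taken at that limit. MCM8 and RFC2 fell on different sides. With 1 residual degree of freedom the fit leans on a spread shared across genes, taken from how far the gradients of the genotypes disagree. A single p-value therefore says little about how well that gene repeated. ORC5, at 0.61 in the labelled knockout and 1.58 in the wild type, and ORC2, at 0.41 and 0.34, both had an SE of 0.27. In bulk polysome RNA, more mRNA in a fraction cannot be told apart from a larger part of the cells placing it there.

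**Figure D1:**
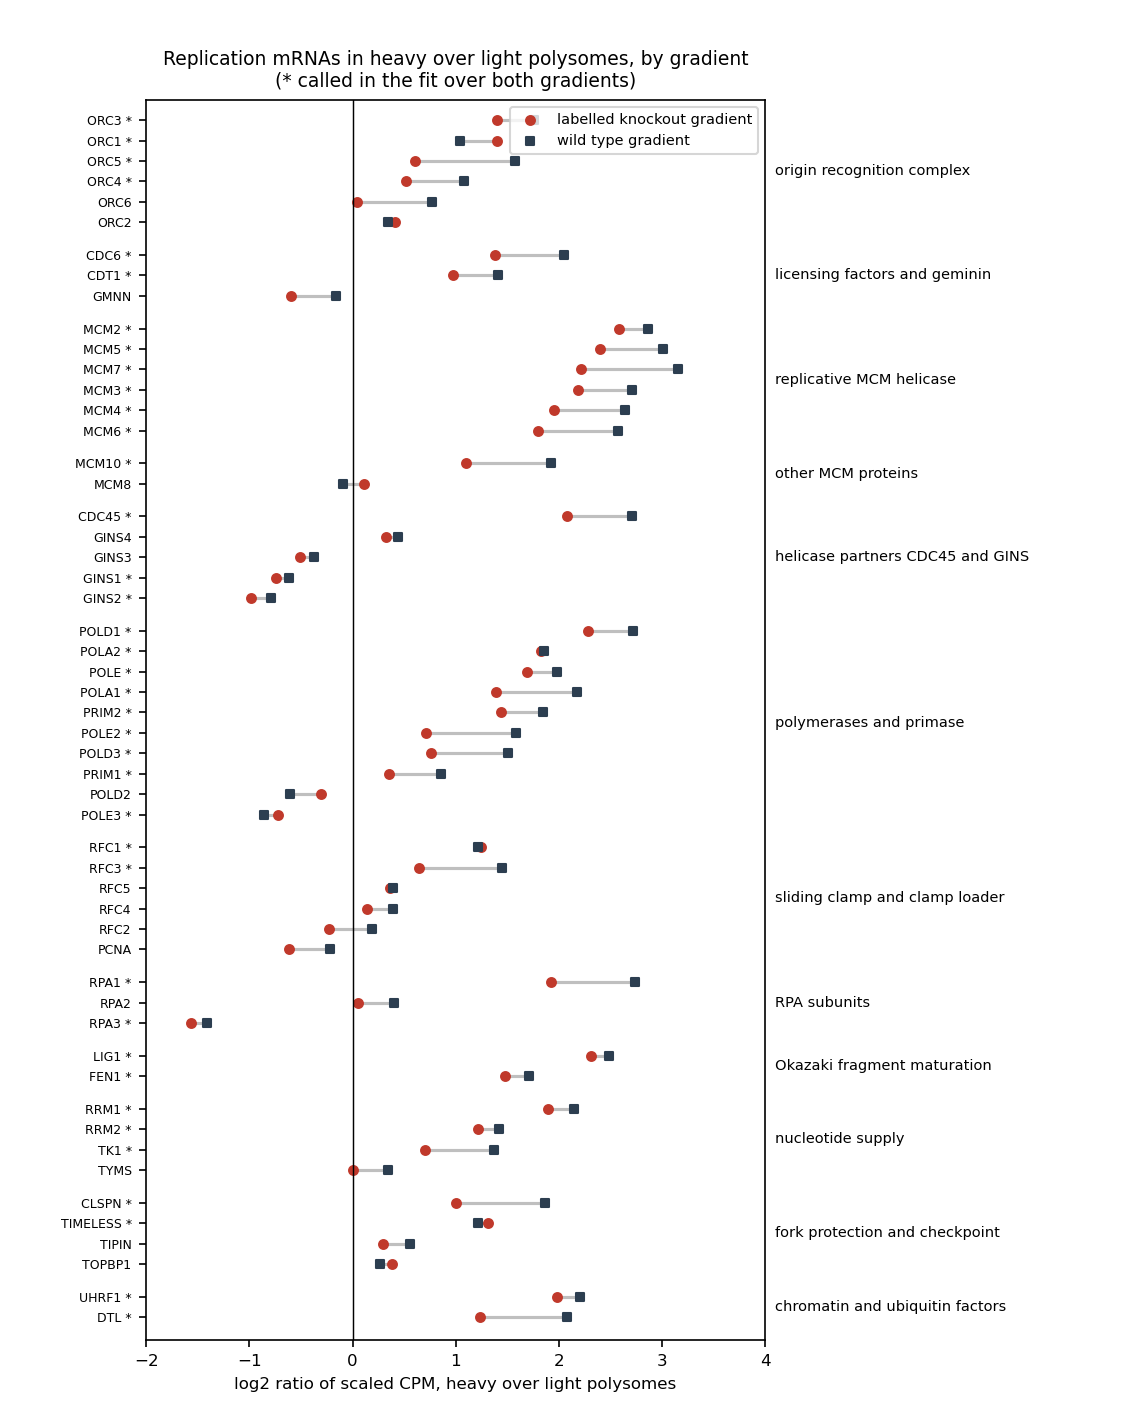
Log2 ratio of scaled CPM (counts normalised to TMM-scaled library size) in heavy over light polysomes for the 53 replication genes, by role, with 1 point per gradient (circles, labelled knockout; squares, wild type); an asterisk marks genes called in the fit over both gradients. By the fit MCM2, MCM5 and MCM7 lie farthest right, RPA3 lies farthest left, and the circle lies left of the square in 45 of the 53 rows.

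The helicase mRNAs stood among the highest, and MCM2, MCM5 and MCM7 led the list. All 6 subunits of the replicative MCM ring were called toward heavy polysomes, with fitted log2 ratios between 2.18 and 2.73. MCM2 had 3932 counts in heavy and 666 in light polysomes of the labelled knockout, and 4889 in heavy and 774 in light polysomes of the wild type (log2 ratio 2.73, SE 0.30, edgeR adjusted p = 5.76e-17). MCM5 had 4136 and 792 counts in heavy and light polysomes of the labelled knockout, and 5085 and 734 in those of the wild type (2.71, SE 0.30, edgeR adjusted p = 1.44e-16). MCM7 had 5309 and 1155 counts in heavy and light polysomes of the labelled knockout, and 14335 and 1870 in those of the wild type (2.69, SE 0.32, edgeR adjusted p = 1.45e-14). In each of these genes both heavy libraries were above both light ones. The exons of MCM2 overlap those of a gene on the opposite strand over 23.6% of their bases, and the strand setting of the counting is not given in the sources used here.

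MCM3 had 5119 counts in heavy and 1140 in light polysomes of the labelled knockout, and 5091 and 903 in those of the wild type (log2 ratio 2.45). MCM4 had 4157 and 1094 counts in heavy and light polysomes of the labelled knockout, and 4480 and 832 in those of the wild type (2.30). MCM6 had 3235 and 945 counts in heavy and light polysomes of the labelled knockout, and 4405 and 864 in those of the wild type (2.18). The other MCM proteins did not follow the ring as a pair. MCM10, which helps to activate the helicase, was called heavy at 1.52 (SE 0.27, edgeR adjusted p = 1.50e-07). MCM8, which acts with MCM9 in recombination rather than in the ring, had a ratio of 0.01 (adjusted p = 0.985) although its coding sequence of 2520 nucleotides is within the range of the ring subunits. Another gene on the same strand shares 33.3% of the exon bases of MCM8.

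Of the genes for CDC45 and the 4 GINS subunits, which join the ring to form one complex, CDC45 was called heavy and GINS1 and GINS2 light. CDC45 had 1501 counts in heavy and 360 in light polysomes of the labelled knockout, and 2049 and 362 in those of the wild type (log2 ratio 2.40, SE 0.28, edgeR adjusted p = 2.66e-15). GINS2 had 974 counts in heavy and 1951 in light polysomes of the labelled knockout, and 1203 and 2424 in those of the wild type (-0.89, SE 0.27, edgeR adjusted p = 0.00274). Heavy was above light in both gradients for CDC45, and below it in both for GINS2. GINS1 stood at -0.68 (edgeR adjusted p = 0.0159; 0.0644 without the gradient as a block). GINS3 at -0.44 (adjusted p = 0.122; 0.0238 with library totals) and GINS4 at 0.38 were not called. Genes on the opposite strand overlap 23.4% of the exon bases of GINS4 and 10.9% of those of GINS3. The 4 GINS coding sequences are short, from 555 nucleotides for GINS2 to 669 for GINS4, against 1698 for CDC45.

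Of the factors that load the ring, CDC6 and CDT1 were called heavy and their antagonist geminin (GMNN) was not called. CDC6 had 2947 counts in heavy and 1149 in light polysomes of the labelled knockout, and 4836 and 1357 in those of the wild type (log2 ratio 1.72, SE 0.29, edgeR adjusted p = 3.80e-08). CDT1 had 3590 and 1863 counts in heavy and light polysomes of the labelled knockout, and 6433 and 2821 in those of the wild type (1.19, SE 0.29, edgeR adjusted p = 2.01e-04). Geminin had 2385 and 3660 counts in heavy and light polysomes of the labelled knockout, and 2249 and 2929 in those of the wild type. Its light libraries were thus the higher ones in both gradients, but the ratio of -0.38 did not pass (adjusted p = 0.241; 0.0357 with library totals in place of TMM). Among the 6 subunits of the origin recognition complex, ORC1, ORC3, ORC4 and ORC5 were called heavy, with log2 ratios of 1.22, 1.58, 0.80 and 1.10. The ATPase ORC4 lost its call with library totals (adjusted p = 0.0559) and without the block (0.0563). ORC2 at 0.38 and ORC6, the smallest subunit, at 0.41 were not called.

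The polymerases and primase were called heavy in 8 of 10, at 0.60 to 2.50. POLD1, the catalytic subunit of polymerase delta, stood at 2.50, POLA2 at 1.85, POLE, the catalytic subunit of polymerase epsilon, at 1.84, and POLA1, that of polymerase alpha, at 1.79. The primase subunits were PRIM2 at 1.64 and PRIM1 at 0.60, the smallest called ratio (edgeR adjusted p = 0.0452), which did not pass with library totals (0.218), without a filter (0.0601) or without the block (0.131). Accessory subunits differed. POLD3 and POLE2 were called heavy at 1.14 and 1.15, and POLD2 had 3563 and 4480 counts in heavy and light polysomes of the labelled knockout, against 3349 and 5965 in those of the wild type (-0.46, adjusted p = 0.167; 0.0170 with library totals). POLE3, a histone-fold subunit of 441 coding nucleotides, had 1760 counts in heavy and 2950 in light polysomes of the labelled knockout, and 1386 and 2927 in those of the wild type. It was called light at -0.79 (SE 0.28, edgeR adjusted p = 0.00950; 0.0564 without the block).

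The clamp and most of its loader were not called. PCNA had 6850 counts in heavy and 10677 in light polysomes of the labelled knockout, and 8427 and 11454 in those of the wild type (log2 ratio -0.42, SE 0.31, edgeR adjusted p = 0.236; 0.0250 with library totals). The large loader subunit RFC1 was called heavy at 1.24. The 4 small subunits RFC2 to RFC5 have coding sequences of nearly the same length, 1020 to 1089 nucleotides, and yet their ratios ran from -0.02 for RFC2 to 1.05 for RFC3. Of these RFC3 alone was called (edgeR adjusted p = 4.26e-04). The difference between the small subunits was not itself tested.

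The subunits of RPA, a trimer, spread widely over the list. RPA1 had 6139 counts in heavy and 1647 in light polysomes of the labelled knockout, and 5569 and 967 in those of the wild type (log2 ratio 2.33, SE 0.31, edgeR adjusted p = 1.87e-12). RPA2 had 2559 and 2516 counts in heavy and light polysomes of the labelled knockout, and 2834 and 2498 in those of the wild type (0.22, adjusted p = 0.50). RPA3 had 496 and 1499 counts in heavy and light polysomes of the labelled knockout, and 737 and 2280 in those of the wild type (-1.49, SE 0.27, edgeR adjusted p = 3.57e-07). RPA1 was thus higher in heavy polysomes and RPA3 in light polysomes of both gradients. Their coding sequences are 1848, 810 and 363 nucleotides long for RPA1, RPA2 and RPA3, and RPA3 has the shortest of all 53.

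Both genes that finish lagging-strand fragments were called heavy. The ligase LIG1 stood at 2.40 and the flap nuclease FEN1 at 1.59. FEN1 had 3438 and 1252 counts in heavy and light polysomes of the labelled knockout, and 2624 and 935 in those of the wild type. Of 4 genes of nucleotide supply, 3 were called heavy, RRM1, the large subunit of ribonucleotide reductase, at 2.03, RRM2 at 1.32 and the thymidine kinase TK1 at 1.03. RRM1 had 5590 and 1518 counts in heavy and light polysomes of the labelled knockout, and 4801 and 1255 in those of the wild type. RRM2 had 22937 and 10023 counts in heavy and light polysomes of the labelled knockout, and 17487 and 7581 in those of the wild type. The heavy libraries were above the light ones in both gradients for each of these genes. Thymidylate synthase (TYMS) stood at 0.17 and was not called, and 47.9% of its exon bases overlap genes on the opposite strand. Of the fork proteins, CLSPN at 1.43 and TIMELESS at 1.26 were called heavy. TIPIN, the partner of TIMELESS, at 0.43 and the checkpoint scaffold TOPBP1 at 0.32 were not. RPL9P25 on the same strand shares 21.1% of the exon bases of TIPIN. UHRF1, which recruits DNA methylation to new DNA, and DTL, which directs the destruction of CDT1, were called heavy at 2.10 and 1.66.

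The heavy to light ratio was higher for longer coding sequences, among the replication mRNAs as among all genes. Across the 53, Spearman's rho between coding length and the heavy to light ratio was 0.735 in the labelled knockout and 0.659 in the wild type, against 0.642 and 0.50 over the 10586 genes that had a known coding length and 50 or more counts per library. These are descriptions across genes that share libraries. Within classes of coding length the replication mRNAs were mostly the heavier ones: 42 of 53 lay above the median of their class in the labelled knockout and 46 of 53 in the wild type, by a median of 0.55 and 1.10 on the log2 scale. In the class of 2001 to 3000 nucleotides, which holds MCM2 to MCM7, the median was 1.92 for 14 members against 0.64 for 1735 genes in the labelled knockout, and 2.35 against 0.66 in the wild type.

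Single genes departed from their class in both gradients. TK1, with 702 coding nucleotides, lay 1.20 above the median of its class in the labelled knockout and 1.83 above it in the wild type. FEN1, with 1140, lay 1.39 and 1.63 above. TOPBP1, with 4566 coding nucleotides, lay on the other side, at -0.43 in the labelled knockout and -0.63 in the wild type, and so did MCM8 at -0.53 and -0.76 and POLD2 at -0.39 and -0.69. No test was made of these departures.

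**Figure D2:**
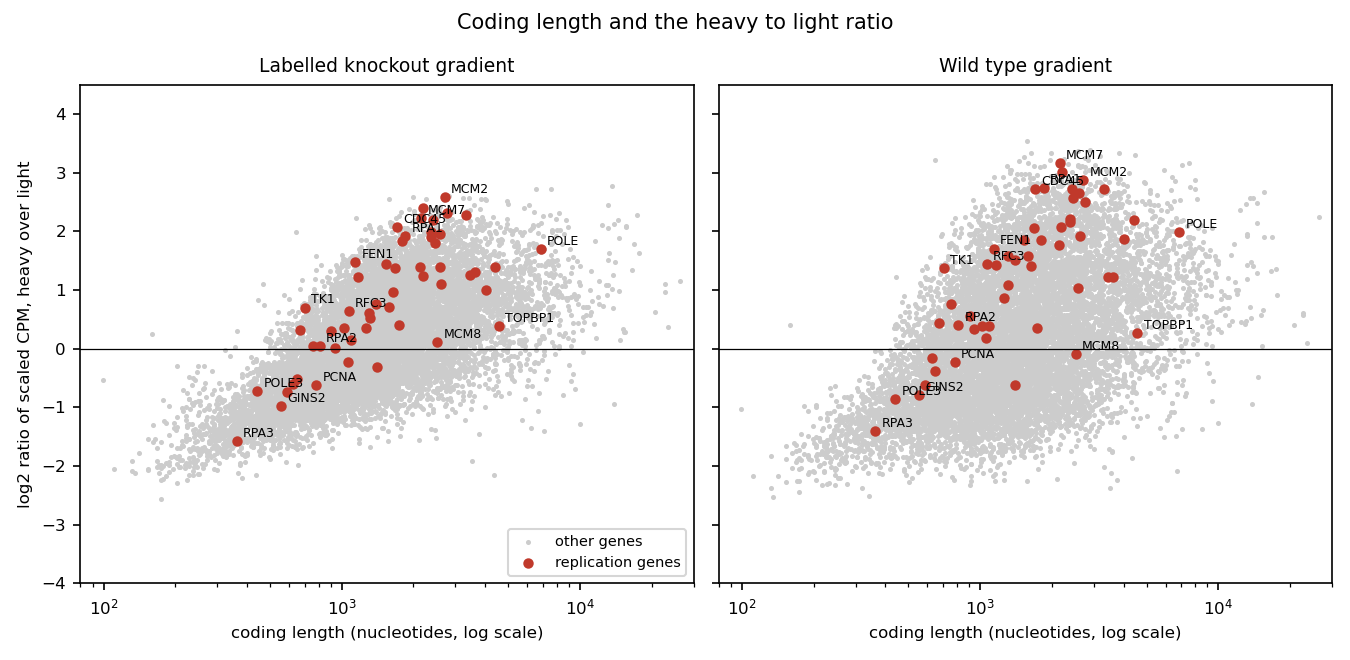
Log2 ratio of heavy over light polysomes (vertical) against coding length in nucleotides (horizontal, log scale) in the labelled knockout gradient (left) and the wild type gradient (right), with replication genes in red and the remaining genes in grey. Most red points lie in the upper part of the cloud at their length; RPA3, at -1.57 in the labelled knockout and -1.41 in the wild type, is the lowest of them, and MCM8 and TOPBP1 lie low for their length.

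Levels of different mRNAs were compared as scaled CPM per kilobase of the annotated canonical transcript. In the wild type MCM7 stood apart from the other ring subunits, and in the labelled knockout it lay closer to them. In heavy polysomes the per-kilobase level of MCM7 was 119 in the labelled knockout and 307 in the wild type, while the other 5 subunits ran from 47.6 to 92.2 in the labelled knockout and from 58.3 to 87.8 in the wild type. In light polysomes it was 25.5 in the labelled knockout and 34.4 in the wild type, with the others at 10.6 to 20.2 and 9.30 to 13.4. The ratio of MCM7 to the median of the other 5 was 1.88 in heavy and 1.86 in light polysomes of the labelled knockout, and 4.08 in heavy and 3.36 in light polysomes of the wild type. MCM7 was thus above each of the other 5 in every library, and its excess was smaller in both labelled knockout libraries. The ratio within a library does not depend on the scaling. It does depend on the transcripts used for the lengths. Exons of MCM7 overlap those of AP4M1 on the opposite strand over 7.90% of their bases.

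**Figure D3:**
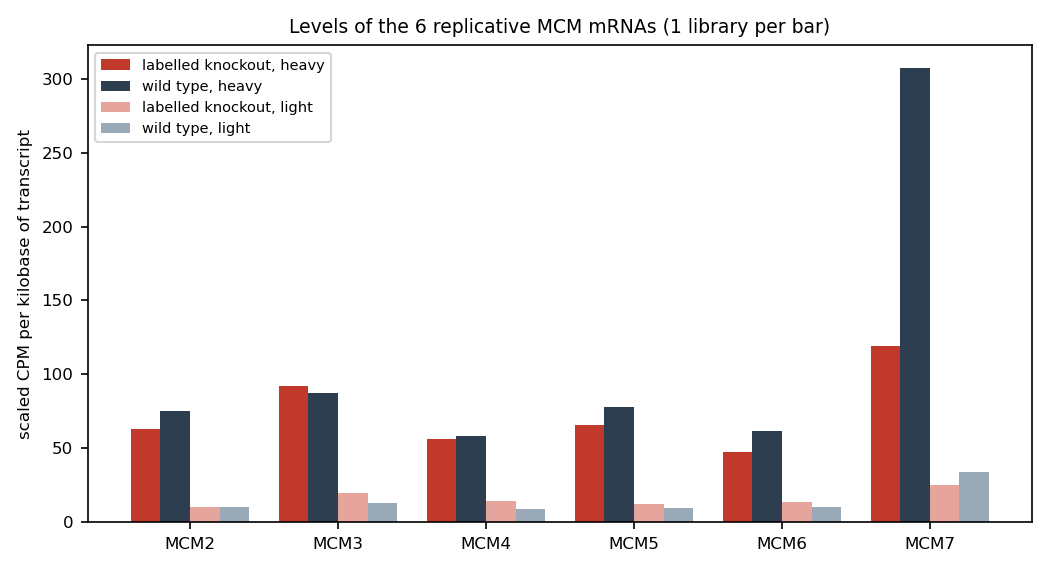
Scaled CPM per kilobase of transcript for the 6 replicative MCM mRNAs, with 1 library per bar in the order labelled knockout heavy, wild type heavy, labelled knockout light, wild type light. MCM7 reaches 307 in wild type heavy polysomes and 119 in those of the labelled knockout, while the other subunits stay at or below 92.2.

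Elsewhere the most abundant replication mRNAs per kilobase were RRM2, TK1 and PCNA. RRM2 had 389 scaled CPM per kilobase in heavy polysomes of the labelled knockout and 284 in those of the wild type. PCNA had 297 and 455 in heavy and light polysomes of the labelled knockout, and 349 and 408 in those of the wild type. Among the least abundant were CLSPN, MCM8 and GINS4, with at most 6.80 in any library.

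The genotypes were then compared within each fraction, with 1 library on each side and so no test. Most of the 53 genes differed by less than 1.5-fold, and not in 1 direction. In heavy polysomes 38 of 53 were lower in the labelled knockout, beside 5698 of the 10690 genes that reached 100 counts in either library, with a median log2 ratio of -0.17 against -0.04 for those genes. In light polysomes 33 of 53 were higher, beside 5536 of 10992 genes, with a median of 0.23 against 0.00. Each gene was also set against genes of a similar mean heavy to light ratio, in classes chosen after seeing the data. The direction in light polysomes then turned, with 18 of 53 above the median of their class, 35 below it and a median of -0.13. In heavy polysomes it did not turn, with 18 above, 35 below and a median of -0.14. Those classes are themselves built from all 4 libraries. Set against genes of a similar coding length, 30 of 53 lay above the median of their class in light polysomes, with a median of 0.16. In heavy polysomes 14 of 53 did, with a median of -0.16. With scaled CPM averaged over both fractions before the ratio was taken, the median was -0.11. That average weighs the fraction with the higher level more, which was heavy polysomes for most of the 53. In both fractions 17 of 53 were lower and 12 higher, and 24 were split. Over all 10418 genes measured in both, 31.9% were lower and 30.8% higher in both. At least 2-fold lower in heavy polysomes were 2 of the 53, MCM7 and MCM10, beside 2.60% of all genes, and none was 2-fold higher, beside 3.26%. In light polysomes RPA1 alone was at least 2-fold higher, beside 3.91% of all genes, and none was 2-fold lower, beside 3.05%. At 1.5-fold, 8 members were lower in heavy polysomes, beside 9.93% of all genes, and none was higher, beside 10.8%. In light polysomes 9 were 1.5-fold higher, beside 14.3%, and 1, ORC1, was lower, beside 11.3%. No member was past 2-fold in both fractions, beside 1.17% of all genes higher and 1.20% lower in both. None was past 1.5-fold in both, beside 4.26% higher and 4.46% lower.

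MCM7 differed most between the genotypes in heavy polysomes. It had 5309 counts in labelled knockout and 14335 in wild type heavy polysomes, a log2 ratio of -1.37 (95% counting interval -1.42 to -1.32), and 1155 in labelled knockout and 1870 in wild type light polysomes, a ratio of -0.43 (-0.54 to -0.33). MCM10 followed with 750 counts in labelled knockout and 1757 in wild type heavy polysomes (-1.16, -1.29 to -1.04), and 353 and 540 in light ones (-0.35, -0.55 to -0.16). In both genes each labelled knockout library was the lower one. The other 5 ring subunits lay between -0.38 for MCM6 and 0.07 for MCM3 in heavy polysomes, and between 0.04 for MCM2 and 0.65 for MCM4 in light ones. Intervals cover counting error only, since there was 1 library on each side. They treat each read as a separate count, so PCR copies would make them too narrow even for that.

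The loading factors CDC6 and CDT1 were lower in heavy polysomes of the labelled knockout, at -0.65 (counting interval -0.72 to -0.58) and -0.78 (-0.84 to -0.72). In light polysomes CDC6 stood at 0.02 and CDT1 at -0.34. Geminin was on the other side, at 0.15 in heavy and 0.58 in light polysomes. ORC1, the largest subunit of its complex and one known to be destroyed after S phase begins, had 649 counts in labelled knockout and 919 in wild type heavy polysomes (-0.44), and 249 and 521 in light ones (-0.80, -1.03 to -0.58). It was the lowest of the 53 in light polysomes. POLA2, with 920 and 1265 counts in labelled knockout and wild type heavy polysomes and 261 and 405 in light ones, stood at -0.40 and -0.37. PRIM1 at -0.74 and -0.23, RFC2 at -0.71 and -0.29 and RFC4 at -0.52 and -0.28 were lower in both fractions as well.

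Higher in both fractions of the labelled knockout were both subunits of ribonucleotide reductase, FEN1 and POLE. RRM2 had 22937 counts in labelled knockout and 17487 in wild type heavy polysomes (log2 ratio 0.45, counting interval 0.43 to 0.48), and 10023 and 7581 in light ones (0.66, 0.62 to 0.71). RRM1 stood at 0.28 in heavy and 0.53 in light polysomes. FEN1 stood at 0.45 and 0.68, and POLE, with 1428 counts in labelled knockout and 1164 in wild type heavy polysomes and 447 and 342 in light ones, at 0.36 and 0.64. POLE3 was higher too, at 0.41 and 0.27. RPA1 stood at 0.20 (0.15 to 0.26) in heavy polysomes and at 1.03 (0.91 to 1.15) in light ones. Its light counts were 1647 in the labelled knockout and 967 in the wild type. Over the 397 genes of its class, those with a mean log2 heavy to light ratio above 2, the median light genotype ratio was 0.68.

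**Figure D4:**
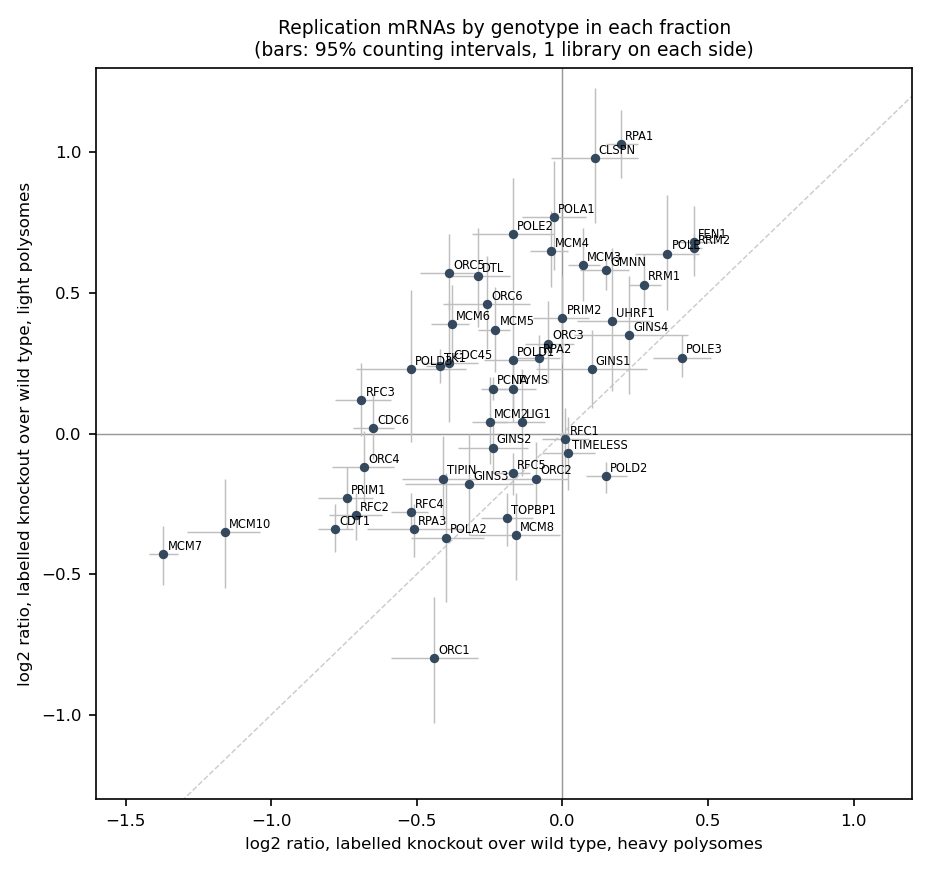
Log2 ratio of the labelled knockout over the wild type in heavy polysomes (horizontal) and light polysomes (vertical) for the 53 genes; bars are 95% counting intervals, the dashed line marks equal ratios, and each point rests on 1 library per side. MCM7 (-1.37, -0.43) and MCM10 (-1.16, -0.35) lie farthest left, and RRM2, FEN1 and POLE lie above 0 on both axes.

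Matches to the seeds of 5 microRNA families in the 3′ UTR were present at shares near to or below those of the 18723 genes with an annotated 3′ UTR. A 7-letter let-7 match was present in 5 (9.43%, against 9.85% of all): MCM8, PRIM2, RFC1, RRM2 and TK1. A match to the miR-17 family was present in 12 (22.6%, against 21.6%), and a miR-15/16 match in 9 (17%, against 21.7%). A match to miR-25, which MCM7 hosts, was present in CDC6 and MCM6 (3.77%, against 11.2%), and a miR-34 match in 4 (7.55%, against 15.8%). The genotype ratio (log2, labelled knockout over wild type) had a median of 0.00 in heavy and 0.24 in light polysomes for the let-7 group, against -0.21 and 0.19 for the other 48. For the group with a miR-17 family match it was -0.06 in heavy and 0.31 in light polysomes, against -0.23 and 0.16 for the other 41. The miR-15/16 group lay on the other side, at -0.41 in heavy and -0.05 in light polysomes, against -0.17 and 0.25 for the other 44. So did the miR-34 group, at -0.24 in heavy and 0.03 in light polysomes, against -0.17 and 0.23 for the other 49. For the 2 genes with a miR-25 match the median was -0.52 in heavy polysomes and 0.21 in light ones, against -0.17 and 0.23 for the other 51. The families thus differed in direction, by less than the range of the members, and no difference was tested.

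The last comparison asked whether the distribution between the fractions differed with the genotype. The heavy to light ratio was smaller in the labelled knockout for 45 of the 53 genes, beside 5794 of the 10834 genes that had 50 or more counts per library, with a median change of -0.37 on the log2 scale against -0.05. No member changed 2-fold, beside 0.905% of all genes with a higher and 2.37% with a lower ratio. At 1.5-fold, 17 members were lower, beside 15.3% of all genes, and none was higher, beside 10.6%. The lowest were ORC5 at -0.97, MCM7 at -0.94 and POLE2 at -0.88. ORC5 had 1450 counts in heavy and 964 in light polysomes of the labelled knockout, and 1993 and 776 in those of the wild type. POLE2 had 773 and 480 counts in heavy and light polysomes of the labelled knockout, and 911 and 352 in those of the wild type. In both genes the heavy library of the labelled knockout was lower than that of the wild type, and its light library was higher. The highest were ORC1 at 0.36, POLD2 at 0.30 and MCM8 at 0.20, and the counting interval of MCM8, -0.01 to 0.42, included 0. MCM8 had 622 and 586 counts in heavy and light polysomes of the labelled knockout, and 727 and 903 in those of the wild type.

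The change was not confined to replication genes. Over all genes it fell with the mean heavy to light ratio of both gradients: the median change was 0.24 for 1530 genes with a mean log2 ratio below -1, and -0.72 for 397 genes above 2. The 12 members of that top class, MCM2 to MCM7, CDC45, POLD1, RPA1, LIG1, RRM1 and UHRF1, had a median change of -0.56. The 9 members between 1.5 and 2 had -0.41 against -0.58 for 792 genes. In every class below 1.5 the members had the lower median. It was -0.67 against -0.42 for the 11 members between 1 and 1.5, and -0.18 against -0.02 for the 10 between 0 and 0.5. The class below -1 held 1 member. After the median of the class was subtracted, 31 of 53 members lay below and 22 above it, with a median of -0.10. These classes were chosen after seeing the data. With the median of the coding length class subtracted instead, 9 of 53 lay above it and the median was -0.29. With 1 library per group, genotype and any difference between the gradients cannot be told apart.

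**Figure D5:**
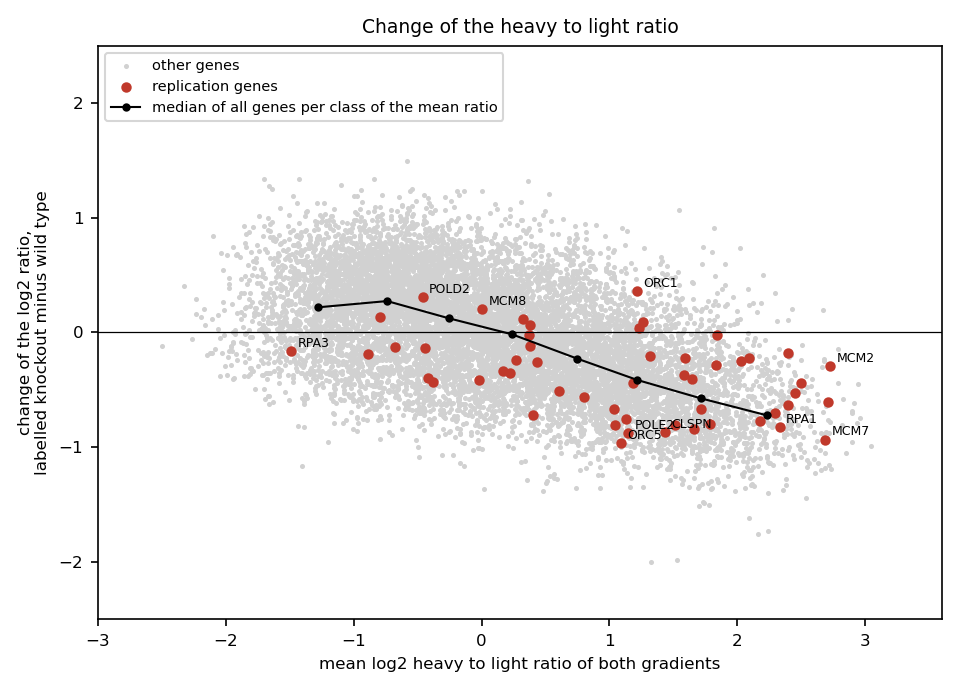
Change of the log2 heavy to light ratio, labelled knockout minus wild type (vertical), against the mean of both gradients (horizontal), with replication genes in red, other genes in grey and the median of all genes per class of the mean ratio in black. The black line falls to -0.72 in the class above 2, and the red points lie on both sides of it.

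Other genes of replication, listed by function with earlier results of these data known, were measured for comparison. Of 72 such genes, 33 were called heavy and 15 light, with a median log2 ratio of 0.36. Beside these counts and those of the lists below, 30.0% of all tested genes were called heavy and 29.3% light. Among 9 replication-coupled chromatin factors 7 were called heavy and 1 light, with a median of 1.61. Examples were the maintenance methyltransferase DNMT1 at 2.45, the histone chaperone subunit SUPT16H at 2.26 and the assembly factor CHAF1A at 1.97. ASF1A was called light at -1.02. Among 11 origin firing genes 7 were called heavy and 1 light (median 1.02), such as LRWD1 at 2.06 and WDHD1 at 1.32. The light one was DBF4, the activator of the kinase CDC7, at -1.01. Of 13 further clamp loader, polymerase and fragment processing genes 5 were called heavy and 4 light (median 0.14). The small polymerase subunits POLE4 at -1.49 and POLD4 at -1.08 were called light, as POLE3 was. Of 13 further genes of nucleotide supply 6 were called heavy and 4 light (median -0.45), among them CAD, which starts pyrimidine synthesis, at 2.06, and the deoxycytidine kinase DCK at -1.34. Of 10 checkpoint genes 4 were called heavy and 3 light (median 0.14). Of 16 G1/S regulators 4 were called heavy and 2 light (median 0.10).

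Between the genotypes these lists had medians from -0.25 to 0.16 in heavy and from -0.07 to 0.19 in light polysomes. The kinase CDK6, which drives entry into S phase, was the farthest, with genotype ratios (log2) of 2.31 in heavy and 2.33 in light polysomes. The cyclin CCND1 stood at 0.65 and 1.18. Of the E2F genes, E2F7, a repressor, stood at 1.15 and 0.03, E2F8 at -0.62 and -0.71, E2F3 at 0.44 and 0.10, E2F2 at -0.26 and -1.03 and E2F1 at -0.06 and -0.64.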

How the data were processed

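RNA of heavy and light polysomes from HCT116 cells was sequenced in 4 libraries. The authors deposited raw read counts per gene symbol, not normalised as far as the values show. CASAVA, STAR, HTSeq and hg19 are named per the submitters' processing notes. Their versions, the annotation and any strand option were not given in the sources used here. No column was without a sample. Library totals are given above; 3 counts, the most that a count of 0 allows, correspond to 0.143 to 0.172 CPM, and no member was at 0.

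Heavy and light polysomes were compared with edgeR 4.0.16 in R 4.3.3 (TMM, filterByExpr, quasi-likelihood, genotype as the block, since each genotype gave 1 pair of fractions; the labels carry no replicate numbers). Where nothing says that libraries are separate cultures, p-values measure only the spread between these samples. Genotypes were compared as log2 ratios of TMM-scaled CPM with a prior count of 2 and exact 95% counting intervals, and the change of the heavy to light ratio with approximate ones. Coding and transcript lengths came from GENCODE 44 (24404 of 26364 symbols matched). Tables were made in Python 3.11.15 (scipy 1.17.1, pandas 2.3.3, numpy 2.4.6).

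Members and lists were chosen with earlier results of these data known. Counts in every library were given for the 6 ring subunits, PCNA, CDC6, CDT1, geminin, RRM1, RRM2, the RPA subunits, and the 3 highest and 3 lowest members of each comparison; CDC45 and other examples were added by role, some after their values were seen. Alternatives were DESeq2 1.42.0 and its size factors, library totals, no filter, no block, other thresholds and prior counts, and length classes.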

Additional observations from a re-analysis of the deposited data

Results flagged for a closer look

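RFC2, a small subunit of the clamp loader, was the only member whose heavy to light ratio lay on opposite sides of 0 in the gradients with both counting intervals excluding 0. It had 1624 counts in heavy and 1936 in light polysomes of the labelled knockout (log2 ratio -0.23), and 2780 and 2842 in those of the wild type (0.19), a change of -0.42. The difference was not tested. With library totals in place of TMM the ratios were -0.39 in the labelled knockout and -0.12 in the wild type, on the same side of 0.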

How the results depend on the processing

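The count of members called toward heavy polysomes (34) stayed between 32 and 34 under DESeq2, its size factors, library totals, no filter and no block, and their median ratio (1.19) was 0.97 and 1.42 with the labelled knockout or the wild type gradient alone. The 4 members called toward light polysomes became 8 with library totals, which move the median ratio of all genes from -0.07 to -0.30, and 2 without the gradient as a block, where 2183 genes in all were called light against 3977. Genes without a call changed sign near 0: MCM8 at -0.23 with library totals and 0.00 without the block, RPA2 at -0.01 and TYMS at -0.06 with library totals, and RFC2 at 0.01 with DESeq2, its size factors, no filter or no block.

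Between the genotypes, the 2 members at least 2-fold lower in heavy polysomes became 8 at 1.5-fold and 1 with the mean of both fractions. That mean is of scaled CPM, not of log2 ratios, so the fraction with the higher level weighs more. In light polysomes the 1 member 2-fold higher became 9 at 1.5-fold, 2 with DESeq2 size factors, and 0 with library totals, with class medians of coding length or of the mean ratio subtracted, or with the mean of both fractions. The 0 members 2-fold lower became 1 at 1.5-fold and with the mean of both fractions, and 2 with the class of the mean ratio subtracted. The light median of 0.23 became 0.16 with the class of coding length subtracted and -0.11 with the mean of both fractions. It became -0.13 with the class of the mean ratio subtracted, an alternative chosen after seeing the data. The median change of the heavy to light ratio became -0.10 under that alternative and -0.29 with the class of coding length subtracted. The 0 members with a 2-fold lower ratio became 2 with DESeq2 size factors and 17 at 1.5-fold. The causes were not tested beyond what each setting changes by construction. Depth was not limiting, but 1 library per group leaves the genotype contrasts without a spread between replicates.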
